A study of Mus musculus with 7 samples.

Results

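The Notch pathway genes described here are 3 receptor genes (Notch1, Notch2 and Notch3), 3 ligand genes (Jag1, Jag2 and Dll1) and 4 genes of the Hes and Hey transcription factors (Hes1, Hey1, Hey2 and Heyl). These 10 genes were taken by name from the 21887 protein-coding genes of the RefSeq annotation of GRCm38.p6, the assembly also known as mm10, and each name matched exactly 1 gene. Every ChIP-seq peak that lay inside a gene or within 100 kb of it was listed, for β-catenin and for Pygo2. Chromatin came from the wild-type branchial arches of mouse embryos collected 10.5 days post coitum, with tissue from many embryos pooled and no cell type selected; the strain is not given in the sources used here. An antibody against β-catenin gave the library BA2 behind the first peak list, an antibody against Pygo2 gave the library BA2 behind the second, and the file headers name the IgG library BA1 as the control of both. Each list rests on 1 library, so no value has a replicate error and no test between conditions was possible.

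Notch signalling passes between neighbouring cells: a membrane ligand of the Jagged or Delta family on a cell binds a Notch receptor on the next, the receptor is cleaved, and its intracellular domain enters the nucleus, where it acts with the DNA-binding protein Rbpj. The Hes and Hey genes are its best known direct targets and encode repressors. In the arches and the vessels that leave the heart, the pathway takes part in patterning the arch skeleton and in forming smooth muscle and valves. Canonical Wnt signals act in the nucleus through β-catenin, to which Bcl9 links Pygo2, a co-factor with a PHD finger.

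The β-catenin list held 1079 peaks from 13672937 tags and the Pygo2 list 7150 peaks from 15009636 tags. A β-catenin peak held 14.6 tags on average and a Pygo2 peak 15.5 tags, where the calling minimums were 11 and 10 tags. The IgG filter dropped 2837 and the local filter 120 of the 4036 putative peaks for β-catenin. For Pygo2 the IgG filter dropped 12515 and the local filter 2194 of the 21859. A gene without a listed peak may therefore have had too few tags at this depth or a putative peak that failed these filters, and is described only as having none listed. The deposited score is 1 for each peak, so no peak strength can be given, and the place of a peak in its list is given instead; the headers do not state how the lists were ordered.

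The Notch genes had 2 β-catenin peaks, that of Jag1 across its start site and that of Notch2 inside the gene. They had 26 Pygo2 peaks, spread over the windows of 8 genes. None of the 2 β-catenin peaks overlapped any of the 26 Pygo2 peaks; in the whole lists, 25.3% of β-catenin peaks and 3.82% of Pygo2 peaks overlapped a peak of the other list, so with so few peaks a count of 0 is near these shares. A Pygo2 peak lay within 100 kb of 3 of 3 receptor genes, 3 of 3 ligand genes and 2 of 4 Hes and Hey genes, against 57.6% of all protein-coding genes, and no test was made between these roles. Hes1, Hey1 and Hey2 have at most 1 other protein-coding gene within 100 kb, a class in which 29.2% of all genes had a Pygo2 peak. Heyl has 7, and in its class of 5 or more the share of all genes was 70.4%. The part of neighbouring genes in these counts was not tested. The sole β-catenin peak at a start site, that of Jag1, and the promoters of the genes set beside it are shown first, because the Jag1 start is the only promoter window, among the 7 of these genes with an entry in the promoter table, that a peak of either list touched.

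The Jag1 promoter is printed below as the 250 bases before the start site (mm10, chr2:137116521-137116770, minus strand, sequence from the RefSeq promoter table of GRCm38.p6), with the 129 bases that lie inside the β-catenin peak in capitals. The other 40 bases of the 169 bp peak extend from the start site into the transcribed sequence and are not printed, apart from a site of 22 bases (chr2:137116483-137116504) that carries the letters TCAAAG in capitals.
Jag1: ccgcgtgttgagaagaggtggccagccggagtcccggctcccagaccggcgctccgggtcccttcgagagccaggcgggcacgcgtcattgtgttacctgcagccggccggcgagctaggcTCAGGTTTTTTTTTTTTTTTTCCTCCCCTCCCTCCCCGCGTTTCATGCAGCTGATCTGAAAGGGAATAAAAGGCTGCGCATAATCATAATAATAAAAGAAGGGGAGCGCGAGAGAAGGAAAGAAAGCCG
Jag1 site: ggagcgccTCAAAGaagcgatc
The letters TCAAAG are the reverse complement of CTTTGA, the core recognised by Tcf and Lef proteins, the DNA-binding partners of β-catenin, and their first base lies 24 bases after the first transcribed base. CTTTGA or its reverse complement occurred in 1 of 7 Notch genes with a promoter entry (8 windows of 250 bases before to 50 after the start, Dll1 having 2 starts), and in 16% of 32851 promoter windows of the same length. The capitals above also hold a run of 16 T, whereas the longest single-base run in the other 7 windows was 6 bases. Runs of at least 16 bases occurred in 1.79% of all promoter windows. A letter match is a description of the sequence and shows no binding by itself.

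For comparison, the promoters of Notch2 and Hey2 are printed, the first because its gene had a β-catenin peak far from the start, the second because its gene had no peak of either list in the window. Capitals mark the letters CACGCG (a box recognised by Hes and Hey proteins) in the 250 bases before the Notch2 start (chr3:98013288-98013537, plus strand) and TTCCCA, the reverse complement of the Rbpj core TGGGAA, in the 250 bases before the Hey2 start (chr10:30842784-30843033, minus strand).
Notch2: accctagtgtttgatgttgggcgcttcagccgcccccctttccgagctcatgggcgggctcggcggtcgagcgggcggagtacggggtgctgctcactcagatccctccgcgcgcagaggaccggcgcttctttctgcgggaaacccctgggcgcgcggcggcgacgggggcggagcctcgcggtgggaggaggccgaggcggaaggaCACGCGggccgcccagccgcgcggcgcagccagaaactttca
Hey2: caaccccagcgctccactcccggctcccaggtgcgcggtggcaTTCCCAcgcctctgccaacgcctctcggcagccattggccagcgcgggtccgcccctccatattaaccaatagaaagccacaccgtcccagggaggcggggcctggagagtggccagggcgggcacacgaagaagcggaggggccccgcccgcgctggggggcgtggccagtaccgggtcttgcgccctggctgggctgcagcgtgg
TGGGAA was found on either strand in Hey2 alone among the 7 Notch genes, at 2 places, the second of which crosses the start site and is not printed in full. The same letters were in 25.6% of all promoter windows. CACGCG, on either strand, was found in 4 of the 7 genes (Dll1, Jag1, Jag2 and Notch2) and in 9.27% of all windows. CACGTG, the palindromic E box, was found in none of the 7 and in 7.15% of all windows. The GC content of the 8 Notch gene windows ranged from 55.7% at Jag1 to 86% at Jag2, with a median of 69.2%, against a median of 52.7% over all windows. Jag1, whose promoter window holds the β-catenin peak, thus had the lowest GC content of these 8 windows. The shares of all windows given for the letters above were not matched for GC content.

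**Figure D1:**
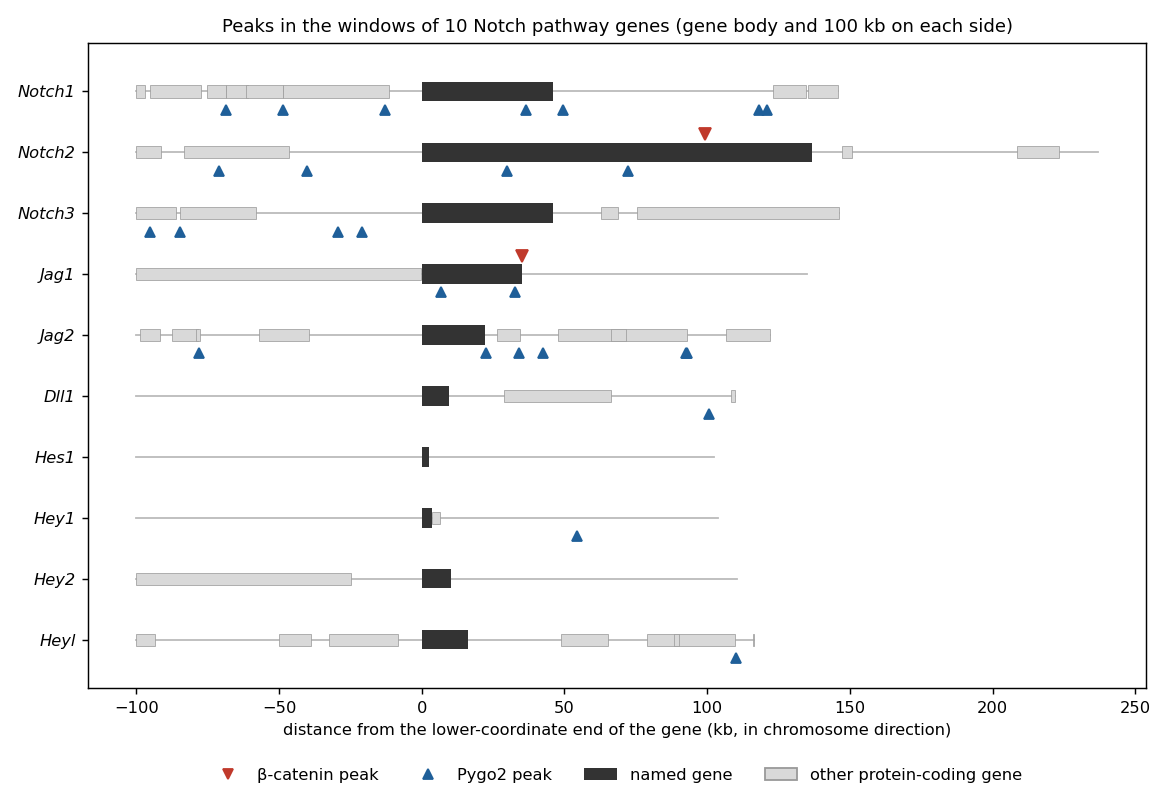
Peaks in the windows of the 10 Notch pathway genes, each row running 100 kb to either side of the gene (black bar) in kb from its lower-coordinate end, with other protein-coding genes in grey. Red triangles above the line are β-catenin peaks and blue triangles below it are Pygo2 peaks; the 2 red triangles lie in Notch2, 27 kb from the nearest blue one, and at the end of Jag1, 2.27 kb from the nearest blue one, and the rows of Hes1 and Hey2 hold no triangle.

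Notch1, the receptor gene that is needed for arterial and valve development, lies on chromosome 2 (26457902 to 26503822, 45.9 kb, minus strand). It had no β-catenin peak in its window and 7 Pygo2 peaks, the highest number among the 10 genes. The nearest β-catenin peak was 136 kb away. Of the Pygo2 peaks, 1 lay inside the gene (26494358 to 26494524), with its centre 9.38 kb downstream of the start site, and 1 lay upstream (26507466 to 26507632), with its centre 3.73 kb from the start site. These 2 peaks had Notch1 as their nearest protein-coding gene.

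The other 5 Pygo2 peaks in the Notch1 window were nearer to other genes. Of these, 3 overlapped promoter windows beyond the 3′ end of Notch1. They were the peak shared by Entr1 and Pmpca (26389235 to 26389401, 68.5 kb from Notch1), that at Inpp5e (26409241 to 26409407, 48.5 kb) and that at Sec16a (26445069 to 26445235, 12.7 kb). The remaining 2 lay on the upstream side, 72.2 kb and 74.8 kb from Notch1. They were 4.91 kb and 2.26 kb from Egfl7, which encodes a secreted protein of endothelial cells.

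Notch2, a receptor gene expressed in neural crest and smooth muscle precursors, is the longest of the 10 genes at 137 kb (chromosome 3, 98013538 to 98150367, plus strand), which also makes its window the widest. Its β-catenin peak (98112814 to 98112982) lay inside the gene, 99.4 kb downstream of the start site and 37.5 kb from the other end. Of 4 Pygo2 peaks, 2 were inside the gene (98043193 to 98043359 and 98085772 to 98085938), 29.7 kb and 72.3 kb downstream of the start site. The centres of the β-catenin peak and the nearer Pygo2 peak were 27 kb apart, so the proteins were listed at separate places of the gene. The other 2 Pygo2 peaks lay upstream of Notch2, at 40.1 kb and 70.8 kb, and had the predicted gene Gm5544 as their nearest.

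Notch3, the receptor gene of vascular smooth muscle (chromosome 17, 32120820 to 32166896, minus strand), had no β-catenin peak in its window and 4 Pygo2 peaks, none of them inside the gene. All 4 lay beyond its 3′ end, from 20.9 kb to 95.1 kb away. The closest (32099713 to 32099879) had Notch3 as its nearest protein-coding gene, while the next was slightly nearer to Rrp1b (28.5 kb) than to Notch3 (29.3 kb). The others overlapped Rrp1b, in its promoter window, and Hsf2bp. The nearest β-catenin peak was 185 kb away.

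Among the ligands, Jag1 is needed for the outflow tract and is the gene most often mutated in Alagille syndrome in humans. It lies on chromosome 2 (137081451 to 137116520, minus strand) and was the only one of the 10 genes with a peak at its start site. The β-catenin peak (137116481 to 137116649) was centred 0.045 kb upstream of the start site and stood at place 302 of 1079 in its list, ahead of the Notch2 peak at place 699. Both Pygo2 peaks lay inside the gene. The first (137114216 to 137114382) was centred 2.22 kb downstream of the start site and the second (137088182 to 137088348) 28.3 kb downstream. The centres of the β-catenin peak and the first Pygo2 peak were 2.27 kb apart. Notch2 was the only other gene with peaks of both lists in its window, and there the smallest distance was 27 kb. All 3 peaks in the Jag1 window had Jag1 as their nearest gene.

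Jag2, a ligand gene expressed in the arch epithelium, lies in a gene-rich stretch of chromosome 12 (112907803 to 112929812, minus strand) and had no β-catenin peak within 100 kb, the nearest being 210 kb away. Of 6 Pygo2 peaks, the closest (112930217 to 112930383) lay 0.405 kb outside the gene on its upstream side, centred 0.805 kb upstream of the start site in the promoter table, which itself lies inside the annotated gene. That peak had Jag2 as its nearest gene. The other 5 did not: they were nearest to Nudt14 (11.9 kb from Jag2), to Brf1 (3 peaks, 20.5 kb, 70.5 kb and 71 kb) and to Gm52009 beside Cdca4 (78.1 kb), where the peak overlapped the Cdca4 promoter window.

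Dll1, the Delta ligand gene best known for its role in somites and neural progenitors (chromosome 17, 15367354 to 15376932, minus strand), had no β-catenin peak in its window and 1 Pygo2 peak at 90.9 kb. That peak (15467794 to 15467960) was 7.76 kb from Psmb1, a proteasome subunit gene. The nearest β-catenin peak to Dll1 was 5131 kb away.

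The 4 Hes and Hey genes among the 10 encode repressors that Notch induces. They had no listed peak of either protein within 50 kb and no β-catenin peak within 100 kb. Over all genes, a peak within 50 kb was listed for β-catenin at 11.2% and for Pygo2 at 46.6%. A β-catenin peak within 100 kb was listed at 17.2%, so 0 of 4 for β-catenin is near the share of all genes. The ligand gene Dll1 likewise had no peak of either list within 50 kb. The pattern does not extend to all Hes genes of the pathway. Hes7 had a β-catenin peak at 0.53 kb and a Pygo2 peak at 0.113 kb, and Hes5 a Pygo2 peak at 1.25 kb. Hes6 had no peak of either list within 100 kb. Hes1 (chromosome 16, 30065357 to 30067796) had its nearest β-catenin peak at 1146 kb and its nearest Pygo2 peak at 123 kb (30191111 to 30191277), outside the window. Hey2 (chromosome 10, 30832359 to 30842783), a repressor gene of the ventricle and of arteries, likewise had its nearest β-catenin peak at 1081 kb and its nearest Pygo2 peak at 137 kb (30979928 to 30980094). These were the 2 genes of the 10 without a listed peak in the window.

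Hey1 (chromosome 3, 8663359 to 8667038), expressed in the arches' endothelium and in the atria, had 1 Pygo2 peak at 50.6 kb (8717679 to 8717845) and overlapped at its end with a predicted gene, LOC115489673, which was slightly nearer to that peak (48 kb). Its nearest β-catenin peak was 11487 kb away, the longest distance among the 10 genes. Heyl (chromosome 4, 123233556 to 123249870), a repressor gene of smooth muscle, had 1 Pygo2 peak at 93.9 kb (123343745 to 123343911), which was 0.493 kb from Bmp8a, a BMP ligand gene. The nearest β-catenin peak to Heyl was 235 kb away. Around the window limit, the Pygo2 distances just inside were those of Dll1 and Heyl and those just outside were those of Hes1 and Hey2; for β-catenin the first distances outside were those of Notch1 and Notch3.

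**Figure D2:**
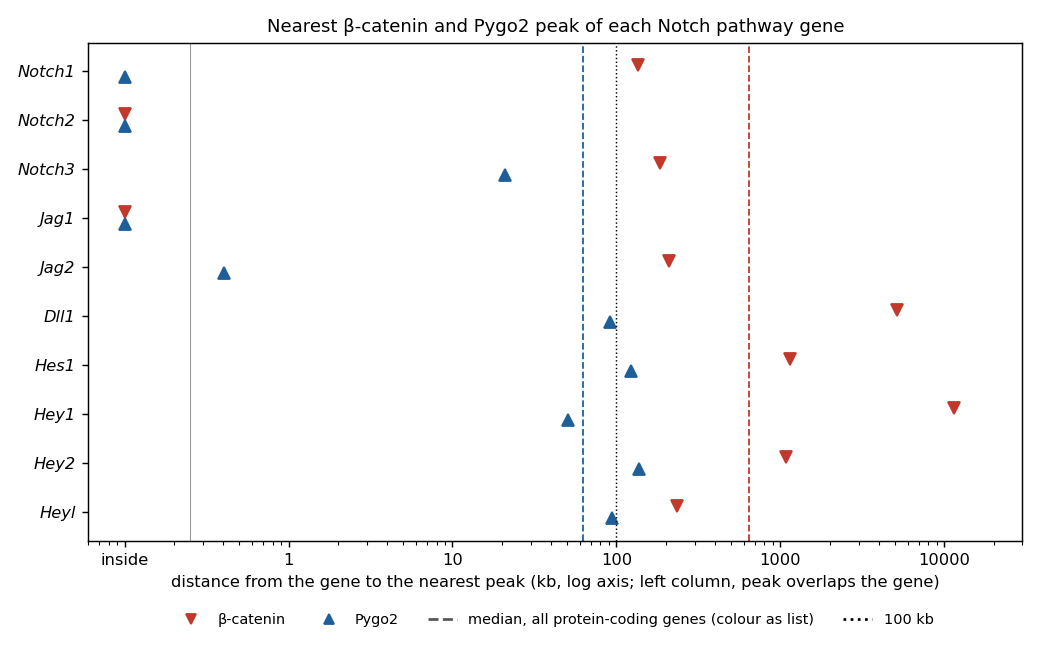
Distance in kb (log axis) from each Notch pathway gene to its nearest β-catenin peak (red) and nearest Pygo2 peak (blue), with peaks that overlap the gene in the left column and dashed lines at the medians of all protein-coding genes (645 kb for β-catenin and 62.4 kb for Pygo2). Jag1 and Notch2 have both symbols in the left column. Dll1 and all 4 Hes and Hey genes lie to the right of 50 kb in both lists.

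The 10 genes were then set beside all protein-coding genes. A β-catenin peak lay within 100 kb of 2 of the 10 Notch genes, against 17.2% of all 21887 genes, and a Pygo2 peak within 100 kb of 8 of the 10, against 57.6% of all genes. Peaks of both lists were within 100 kb of 2 of the 10, against 15.1% of all genes. An overlapping pair of peaks was within 100 kb of 0 of the 10, against 6.33% of all genes. The β-catenin and both-list shares were near those of all genes, and with 10 genes chosen by name and 1 library for each protein no test was made of any of these differences.

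Both β-catenin peaks overlapped Notch genes, so the β-catenin count stayed at 2 in smaller windows, while the share of all genes fell. Within 10 kb, 2 of 10 Notch genes had a β-catenin peak, against 5.49% of all genes, and 4 of 10 had a Pygo2 peak (Notch1, Notch2, Jag1 and Jag2), against 30% of all genes. Within 50 kb, 2 of 10 had a β-catenin peak, against 11.2% of all genes, and 5 of 10 had a Pygo2 peak, with Notch3 added, against 46.6%. Peaks of both lists were within 10 kb of 2 of the 10, against 4.02% of all genes, and within 50 kb of 2 of the 10, against 9.24%. Overlapping peaks were near 0 of the 10 in these windows, against 1.83% of all genes within 10 kb and 4.06% within 50 kb. When a peak within 100 kb counted only for its nearest protein-coding gene, 2 of 10 Notch genes kept a β-catenin peak, against 4.29% of all genes, and the same 5 as at 50 kb kept a Pygo2 peak, against 24.2%. With this assignment 2 of 10 had peaks of both lists, against 2.73% of all genes. The β-catenin and both-list counts rest on the same 2 β-catenin peaks. That of Notch2, a gene of 137 kb, lay 99.4 kb from the start site and 37.5 kb from the other end. The lengths of the Notch genes were not set beside those of all genes, and none of these differences was tested. Of the 26 Pygo2 peaks, 8 had a Notch gene as their nearest, 18 lay nearer to another gene, and 5 of those overlapped another gene's promoter window.

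**Figure D3:**
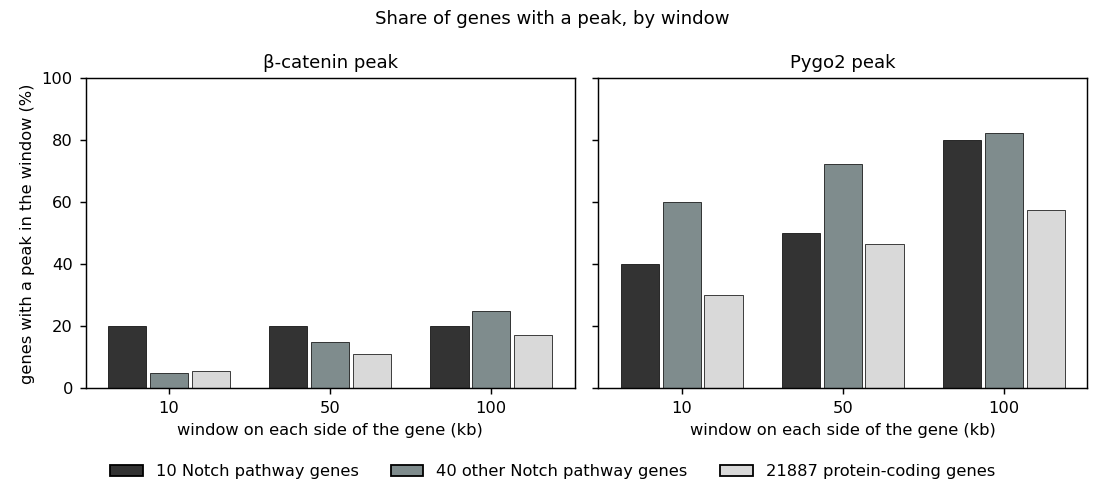
Percent of genes with a β-catenin peak (left) or a Pygo2 peak (right) within 10, 50 and 100 kb, for the 10 Notch pathway genes, 40 other genes of the pathway and all protein-coding genes. The β-catenin bar of the 10 genes stands at 20% in each window, and their Pygo2 bar is at 40%, 50% and 80%.

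Windows with many genes tended to hold more Pygo2 peaks, over all genes and, with Heyl as an exception, among the Notch genes. Notch1 and Jag2, with 7 and 6 Pygo2 peaks, each had 8 other protein-coding genes within 100 kb, whereas Hes1 had 0 and Hey1, Hey2 and Jag1 had 1 each. Heyl had 7 such neighbours and 1 Pygo2 peak. Over all genes with 5 or more such neighbours, 70.4% had a Pygo2 peak within 100 kb, against 29.2% of genes with 0 or 1 neighbour. In the gene-rich class all 3 Notch genes (Notch1, Jag2 and Heyl) had one, and in the gene-poor class 2 of 4 did (Jag1 and Hey1). For β-catenin the shares of all genes were 24.3% and 8.1% in these classes, and Jag1 was the only Notch gene of either class with a peak. In the middle class, of 2 to 4 neighbours, 3 of 3 Notch genes had a Pygo2 peak, against 52.3% of all genes, and 1 of 3 had a β-catenin peak, against 11.6%. The part of neighbouring genes in the counts was not tested.

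**Figure D4:**
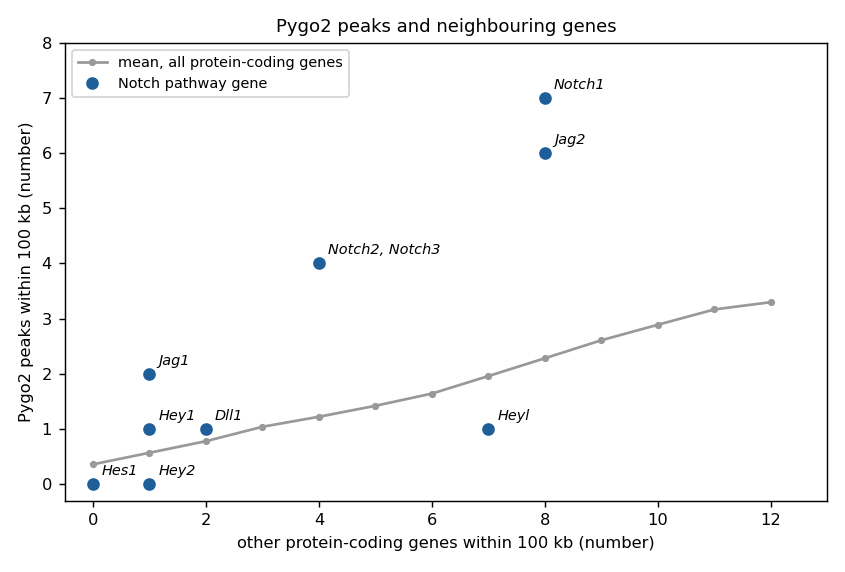
Number of Pygo2 peaks within 100 kb of each Notch pathway gene (blue points) against the number of other protein-coding genes within 100 kb, with the mean over all protein-coding genes as a grey line. Notch1 and Jag2 lie at the upper right with 7 and 6 peaks, and Hes1, Hey2 and Heyl lie below the line.

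Of the 26 Pygo2 peaks in these windows, the earliest in the deposited list was the peak 5.15 kb from Brf1 in the Jag2 window, at place 1618 of 7150. The peak closest to Jag2 stood at place 5474, and that 2.22 kb inside Jag1 at place 3537. No order of strength is read from these places.

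Another 40 genes of the pathway were counted in the same way, among them the remaining receptor and ligand genes, the Rbpj and Mastermind genes, glycosyltransferases, proteases of receptor cleavage and further Hes genes. Within 100 kb, 10 of the 40 had a β-catenin peak and 33 had a Pygo2 peak. These are 25% and 82.5% of the list, beside 17.2% and 57.6% of all genes. Rbpj itself had no peak of either list within 100 kb, its nearest β-catenin peak being at 325 kb and its nearest Pygo2 peak at 288 kb. Maml3, a Mastermind co-activator gene, had 9 Pygo2 peaks and no β-catenin peak. Nrarp, a feedback inhibitor gene, had no β-catenin peak and 3 Pygo2 peaks, the closest 0.089 kb from the gene.

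Overlapping peaks of both lists lay within 100 kb of 5 of these 40 genes (12.5%), namely Dll3, Rfng, Itch, Hes5 and Hes7, against 6.33% of all genes. In each case the overlapping β-catenin peak was nearest to another gene. At Rfng, a glycosyltransferase gene, the 2 overlapping β-catenin peaks lay inside Dus1l and Fasn, 12.1 kb and 40.2 kb away. At Dll3 the peak was 73.8 kb away and nearest to Zfp36, at Itch 82.2 kb away and nearest to the nonagouti gene, at Hes5 52 kb away and nearest to Prxl2b, and at Hes7 77 kb away and nearest to Aurkb. Hes7, an oscillating repressor gene of the somite clock, was the only one of the 40 with a β-catenin peak for which it was the nearest gene (2.5% of the list, against 4.29% of all genes). That peak (chromosome 11, 69118208 to 69118376) lay 0.53 kb from Hes7 and overlapped no Pygo2 peak, and the nearest Pygo2 peak was 0.113 kb from the gene.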

How the data were processed

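Chromatin of about 200 arches was cross-linked for 40 min with 1.5 mM EGS, and for the last 20 min also with 1% formaldehyde, per the labels' protocols. Peaks were called with HOMER findPeaks in factor style, per the file headers, each list from 1 library with IgG BA1 as control. A peak needed a false discovery rate of 0.001, 2-fold more tags than the control and than the local 10 kb, and a Poisson p-value of 1e-04. Bowtie, Bowtie2, HOMER and mm10 are named in the submitters' processing notes, without roles. All peaks have the same score of 1 in the deposited lists; peak widths are 169 bp (β-catenin) and 167 bp (Pygo2). What BA1 and BA2 stand for is not stated in the labels. The other libraries' peaks were not analysed here.

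Coordinates are 1-based on mm10. RefSeq genes of GRCm38.p6 were used without exons, so exon, intron and UTR are not told apart. Start sites and strands came from the RefSeq promoter table, which held 7 of the 10 genes. Distances run from the peak's edge to the gene (0 when they overlap), or from the peak's centre to the start site where stated. Lists were overlapped at a minimum of 1 bp. No test was run, since there is 1 library per protein; counts stand beside the share over all protein-coding genes. All 10 genes are named; other genes are named as a peak's nearest gene or, among the other pathway genes, for overlapping peaks. Rbpj, Maml3 and Nrarp were chosen after their values were seen. The genes and lists were chosen with earlier results of these data known. Distances were checked on simulated data. Python 3.11.15, NumPy 2.4.6, pandas 2.3.3 and Matplotlib 3.10.9 were used.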

Additional observations from a re-analysis of the deposited data

How the results depend on the processing

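The count of 2 Notch genes with a β-catenin peak was the same with windows of 50 kb and 10 kb and with nearest genes only, and became 1 (Jag1) with the list ended at its middle. The count of 8 Notch genes with a Pygo2 peak was 5 within 50 kb, 4 within 10 kb, 5 with nearest genes only, 4 with the list ended at its middle and 0 with the Pygo2 list shortened to the length of the β-catenin list. The count of 2 genes with peaks of both lists became 1 with each list ended at its middle and 0 with the shortened Pygo2 list. The shares of all genes were not computed for the lists ended at their middle or shortened. The counts with these lists are therefore not read as a result about the Notch genes. The 26 Pygo2 peaks became 14 within 50 kb and 7 within 10 kb, and the 2 β-catenin peaks stayed 2. A smaller window or a shorter list can only keep or lower such counts. Of the 26 Pygo2 peaks, 9 stood before the middle of their list and 17 after it. Their median place was at 63.3% of the list. The count of 0 genes with overlapping peaks was also 0 at an overlap of at least 84 bp and with centres within 500 bp. Neither setting could give another count, because no pair in the windows shared 1 bp and the smallest distance between centres was 2.27 kb. No paired analysis was possible because each list comes from 1 library and no test was made; for the same reason no replicate could be left out. No tag count of a single peak was used, so weak and strong peaks could not be told apart, and the IgG library is the same for both lists.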

Other observations

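Some Pygo2 peaks in the Notch windows lay closest to genes that do not code for proteins. Of the peaks beyond the 3′ end of Notch3, the one 29.3 kb away lay inside the transcribed pseudogene Pdxk-ps, and the one 20.9 kb away was 8.29 kb from it. The peak upstream of Notch1 was 2.12 kb from the long non-coding RNA gene Gm35978, closer than to Notch1 itself at 3.64 kb. In the Jag2 window, the peaks 20.5 kb and 71 kb away lay inside the long non-coding RNA genes Gm26583 and 9230104M06Rik, and the Pygo2 peak in the Hey1 window was 14.5 kb from the long non-coding RNA gene C230057A21Rik. The 2 β-catenin peaks, and the Pygo2 peaks inside Notch1, Notch2 and Jag1, overlapped no other gene of any annotated type.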
